A study of Mus musculus with 6 samples.

Results

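The genes described here are 10 transcription factors of the embryonic genital tubercle, from which penis and clitoris develop: Dlx1, Dlx2, Dlx3, Dlx5, Dlx6, Msx1, Msx2, Sp8, Tfap2a and Tfap2c. They were taken by name, with every probe set that the platform annotation gives to one of them alone. This gave 17 of the 45037 probe sets that are not controls, and 10 of the 18193 genes with a probe set of their own. Dlx1, Dlx2, Dlx5, Dlx6 and Sp8 had 1 probe set each, Dlx3, Msx1 and Msx2 had 2 each, and Tfap2a and Tfap2c had 3 each.

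Reporter-positive cells were compared with reporter-negative cells of the same kind of tissue, with 3 arrays in each group. Tubercles were cut at their base from mouse embryos of 12.5 days post coitum and mixed background, dissociated with trypsin and sorted for fluorescence. All cells of both groups came from embryos with the Shhtm1(EGFP/cre)Cjt allele, which makes Cre recombinase from the Shh locus, and the Gt(ROSA)26Sortm3(CAG-EYFP)Hze allele, which makes yellow fluorescent protein once Cre has acted. The positive fraction is labelled urethral epithelium and the negative fraction is the remaining tubercle. Since the recombined reporter is permanent, it marks cells with present or past Cre activity. Each array held RNA from a pool of littermates of both sexes: replicate 1 pooled 3 embryos, replicate 2 pooled 5 and replicate 3 pooled 2, in each group alike. The comparison asks which of these regulators differ between the Shh lineage and its surroundings.

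Msx and Dlx proteins are homeodomain factors that bind a shared AT-rich core. In limb and face Msx1 and Msx2 act downstream of bone morphogenetic proteins (BMPs), mostly as repressors, and Dlx proteins mostly activate. Dlx genes lie in linked pairs, with Dlx1 next to Dlx2 on mouse chromosome 2 and Dlx5 next to Dlx6 on chromosome 6, and the partners of a pair share enhancers. Sp8 is a zinc-finger factor of the apical ectodermal ridge, the limb's distal signalling epithelium, where it acts downstream of Wnt and sustains Fgf8. Tfap2a and Tfap2c encode AP-2 factors of surface ectoderm and neural crest.

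After quantile normalization Sp8 was the member with the highest positive difference, and Msx1 and Dlx5 were the members with lower signal in all 3 positive arrays than in any negative array. As deposited this separation held for Msx1 and not for Dlx5. None of the 10 genes passed an adjusted p of 0.05 (limma with Benjamini-Hochberg adjustment over 14071 genes), with or without the dimmest array. In the 6 arrays 1 of the 10 genes was lower at an unadjusted p under 0.05, Msx1, where 2.88% of all genes tested were, and 1 was higher, Sp8, where 2.3% were (limma). In the whole comparison 2 genes passed the adjusted threshold, both higher in positive cells, which is 0.0142%, and 0% were lower. The labels name 1 pool for each array, and p-values cover only the spread among these arrays, which may be partly technical. In sorted bulk RNA, fewer cells of a type and less RNA per cell cannot be told apart.

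The arrays differed in signal, and positive replicate 3 stood apart. Its median over probe sets with 1 gene name was 0.34 in the deposited units, against 2.15 to 8.84 in the other 5 arrays, while added hybridization controls averaged 1443 to 1884 on all 6. Across probe sets its rank correlation (Spearman) with any other array was at most 0.317, where the remaining 5 gave 0.671 to 0.822 among themselves. Background was taken as the brightest of 27 bacterial control probe sets that receive no spike, 4.47, 4.41 and 1.12 in positive replicates 1, 2 and 3 and 5.36, 8.28 and 2.03 in negative replicates 1, 2 and 3. Shh itself read 287, 718 and 16.9 in positive arrays, against 1.31, 18.4 and 2.51 in negative arrays. As deposited, positive replicate 3 thus lay below negative replicate 2. On the normalized log2 scale Shh was at 8.49, 9.78 and 9.92 in positive arrays, against 4.06, 4.63 and 4.41 in negative arrays. The sort is visible on that scale in the gene that drives it. Mesenchymal markers did not follow the sort evenly. Relative to the negative mean, the median of 10 such genes was -0.07 in positive replicate 1 and -2.67 and -2.44 in positive replicates 2 and 3, on the normalized log2 scale, and 12 epithelial markers had medians of 1.98, 3.06 and 3.32.

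Most member signals were near this background. Of the 17 probe sets, 12, 10 and 3 exceeded it in positive replicates 1, 2 and 3, against 13, 12 and 12 in negative replicates 1, 2 and 3. Only Msx1 1448601_s_at and Tfap2a 1426048_s_at exceeded it on all 6 arrays. In positive replicate 3 the third probe set above background was that of Sp8. With so few arrays the precision of each value is limited.

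**Figure D1:**
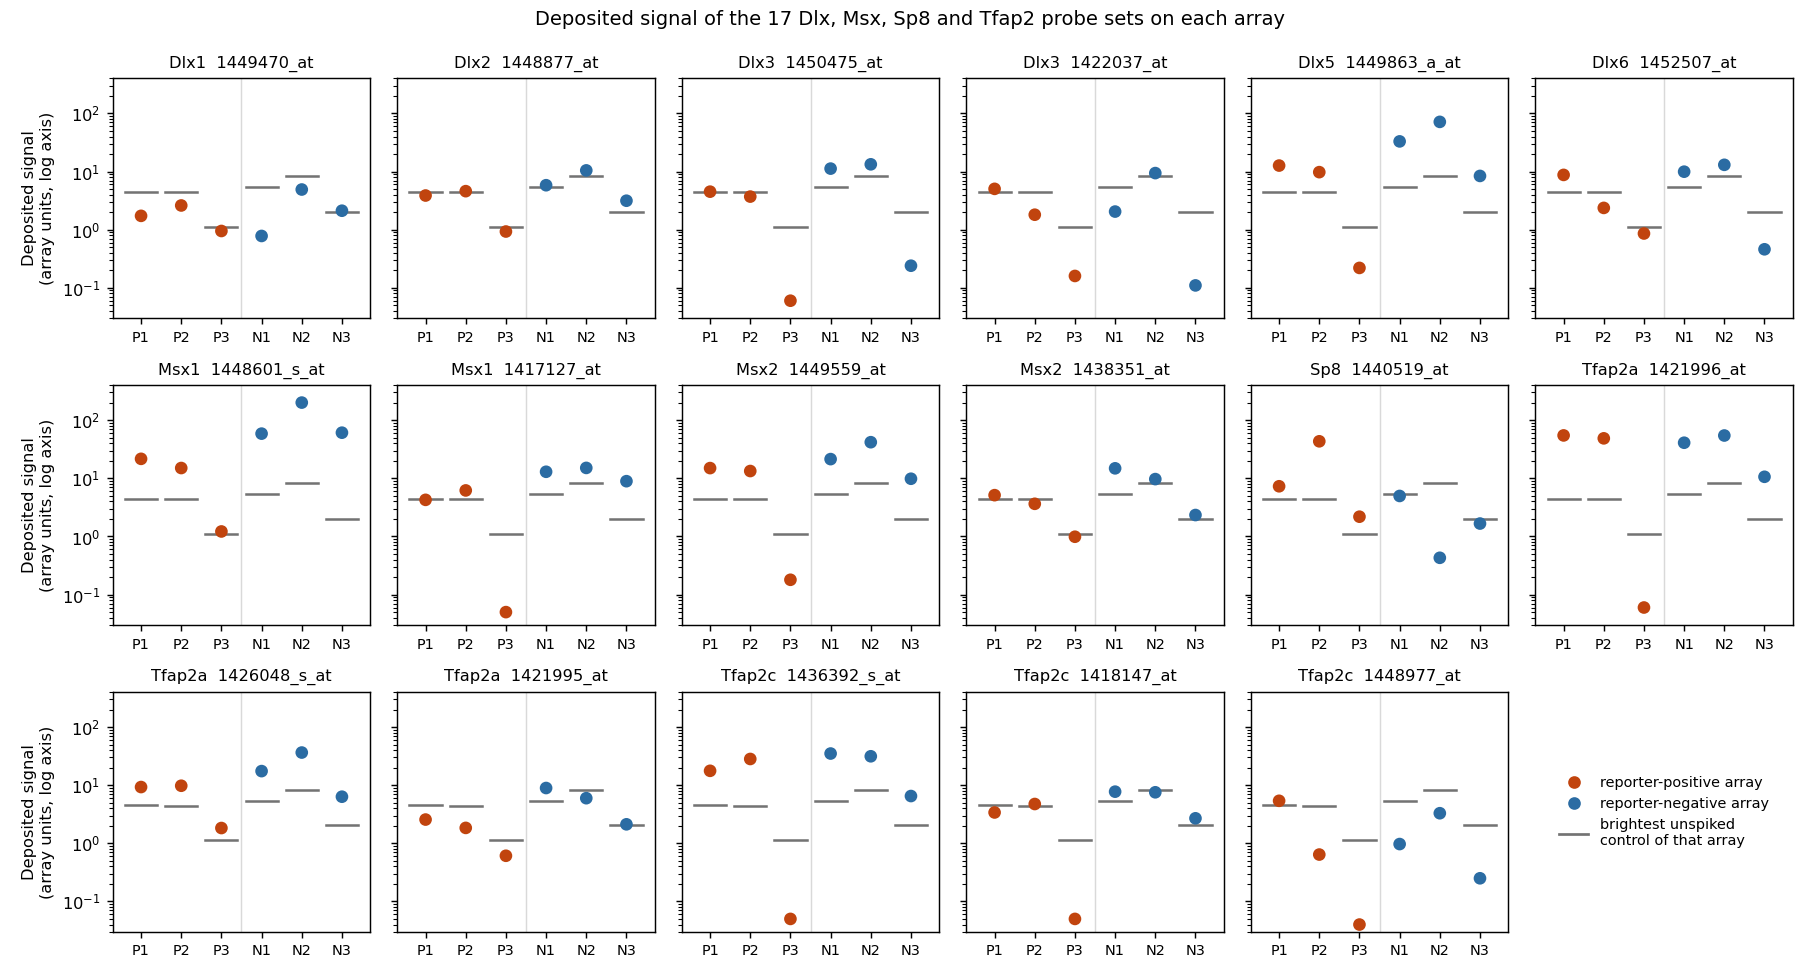
Deposited signal (array units, log axis) of each of the 17 probe sets on the 3 reporter-positive arrays (P1 to P3) and the 3 reporter-negative arrays (N1 to N3), with a grey bar at the brightest unspiked control of the same array. Sp8 exceeds the bar on the 3 positive arrays and on no negative array, and many points of P3 lie below it.

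Sp8 had signal above background on each positive array and on no negative array. Its probe set 1440519_at read 7.31, 43.4 and 2.19 in positive replicates 1, 2 and 3, against 4.98, 0.43 and 1.67 in negative replicates 1, 2 and 3. The deposited signals overlap, with positive replicate 3, the dim array, below negative replicate 1. Within its own array Sp8 stood at the 66.1st, 93.2nd and 94.6th percentile of all 45037 probe sets in positive replicates 1, 2 and 3, against the 43.6th, 6.91st and 47.8th in negative replicates 1, 2 and 3. After quantile normalization, which uses these ranks, the groups no longer overlapped, and positive replicate 1 was the nearest to the negative arrays. The normalized log2 signal averaged 5.86 ± 1.15 in positive arrays and 4.18 ± 0.14 in negative arrays (SD, n = 3 each). The Sp8 difference came to 1.68 (SE 0.52, adjusted p = 0.725, limma), higher in 3 of 3 positive arrays.

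As no negative array measured Sp8 above background, its fold was also taken against a floor. Each negative array was set to the lowest signal above background on that array, on the quantile-normalized log2(signal + 16) scale. Against this floor the mean of the positive arrays was 2.92-fold higher, and 2.36-fold without positive replicate 3. These folds allow for undetected negative signal only, not for the spread among positive arrays (SD 1.15). They hold for that scale only. The measured log2 difference was smaller with signals as deposited (0.68), with log2 centring (0.87) and with a pseudocount of 64 (0.75). Its difference kept its sign in 20 of 20 alternative settings, from 0.68 to 2.79. It passed with array weights (difference 1.31, adjusted p = 0.0033, limma) and in the 5 arrays left after removal of positive replicate 3 with pool size as a block (difference 1.45, adjusted p = 0.00412, limma), where negative replicate 3 has no partner. These settings called 480 and 479 of all 14071 genes tested. For Sp8 the adjusted p ranged up to 0.967 over all 20 settings. In the same 5 arrays with no block the difference was 1.39 (SE 0.43, adjusted p = 0.334, limma).

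The 3 positive arrays stood in the same order for Sp8 as for the epithelial marker median, with replicate 1 lowest. Sp8 lay 0.35 above the negative mean there and 2.20 and 2.48 above it in replicates 2 and 3. Not every epithelial marker had this order, as Foxa1 was highest in positive replicate 2 and Cdh1 lowest in positive replicate 3. Positive replicate 1 was also the array with mesenchymal markers at the level of the negative arrays. The part of these marker levels in the Sp8 result was not tested. By Pearson's correlation over the 6 arrays, the tested genes most like Sp8 were Pld2, a phospholipase D (0.998), Dsg2, a desmosomal cadherin (0.996), and Cracdl (0.994). Over the 5 arrays without positive replicate 3 the values were 0.996, 0.994 and 0.987. In all 123 genes exceeded 0.95 with Sp8, and all of these values share the same 6 arrays, so they describe likeness only.

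**Figure D2:**
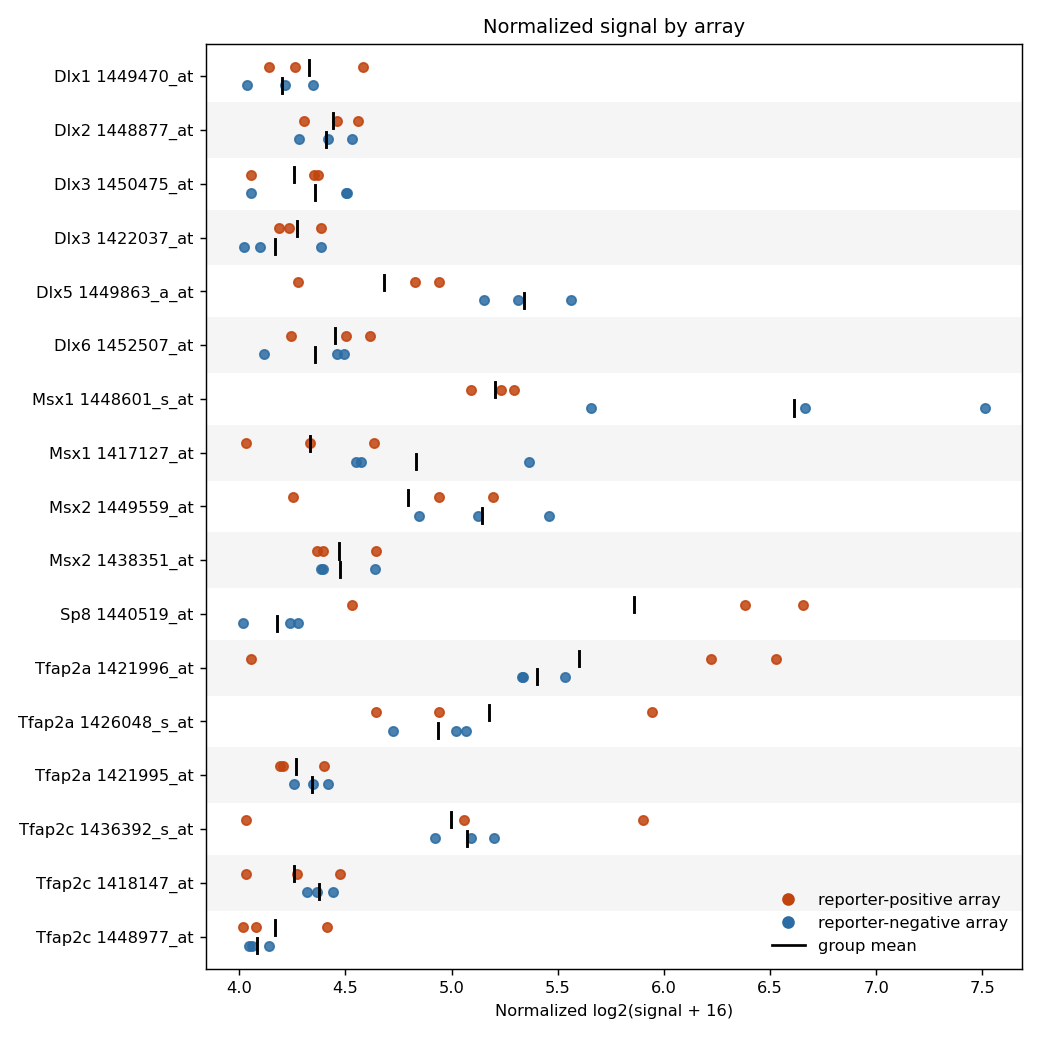
Normalized log2(signal + 16) of the 17 probe sets, with 1 point per array, reporter-positive above reporter-negative in each row, and a black bar at each group's mean. For Sp8 all positive points lie right of the negative ones, and for Msx1 1448601_s_at and Dlx5 all lie left of them.

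Msx1 was lower in all 3 positive arrays by its brighter probe set. Msx1 1448601_s_at read 21.7, 15.1 and 1.22 in positive replicates 1, 2 and 3, against 58.8, 201 and 61.1 in negative replicates 1, 2 and 3. Each positive array was below each negative one already as deposited, although positive replicate 3 exceeded its background by little. The percentiles within the array were 82.6, 83.4 and 80.3 in positive arrays, against 87.7, 94.7 and 97.3 in negative arrays. Msx1 signal was thus above background on the positive arrays too, and both groups kept their separation on the rank scale. The part of carried-over negative cells in this signal was not tested. The normalized log2 signal averaged 5.21 ± 0.11 in positive arrays and 6.61 ± 0.93 in negative arrays (SD, n = 3 each), a difference of -1.41 (SE 0.49, adjusted p = 0.725, limma).

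Most of the spread in Msx1 was among the negative arrays, where the normalized values were 5.66, 6.66 and 7.51. The smallest gap, between positive replicate 2 at 5.29 and negative replicate 1 at 5.66, was less than the SD of the negative arrays. Msx1 was at 5.23 in positive replicate 1 and at 5.29 and 5.09 in replicates 2 and 3. The mesenchymal marker median of positive replicate 1 was at -0.07 relative to the negative mean, and its part in the Msx1 values was not tested. The Msx1 difference was negative in 20 of 20 alternative settings, from -1.99 to -0.82. It passed in 1, array weights (difference -1.21, adjusted p = 0.0258, limma, up to 0.967 over all 20), where 480 of 14071 genes passed. It was also -1.41 when positive replicate 3 was left out (SE 0.46, adjusted p = 0.373, limma).

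The dimmer Msx1 probe set had the same sign. Msx1 1417127_at read 4.27, 6.20 and 0.05 in positive replicates 1, 2 and 3, against 13.0, 15.1 and 8.94 in negative replicates 1, 2 and 3. Only 1 positive array exceeded its background, and 3 of 3 negative arrays did. After normalization the groups overlapped, since positive replicate 2 (4.64) lay above negative replicates 1 and 2 (4.57 and 4.55). The difference was -0.50 (SE 0.30, adjusted p = 0.797 over all probe sets, limma). It was negative in 17 of 17 settings, from -1.03 to -0.085. In replicates 1 and 2 of each group alone it was -0.096 (SE 0.25).

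Msx2, the paralog of Msx1, showed no comparable separation. Msx2 1449559_at read 15.0, 13.4 and 0.18 in positive replicates 1, 2 and 3, against 21.4, 41.9 and 9.85 in negative replicates 1, 2 and 3. Normalized, the values were 4.94, 5.20 and 4.25 in positive arrays, against 4.85, 5.12 and 5.46 in negative arrays, and 1 positive array, the dim one, lay below all negative arrays. The difference of -0.35 (SE 0.36, adjusted p = 0.756, limma) was -0.08 (SE 0.30) without positive replicate 3. Its other probe set, Msx2 1438351_at, exceeded background in 1 positive and 3 negative arrays and differed by -0.01 (SE 0.23, adjusted p = 0.995 over all probe sets, limma). Whether Msx1 and Msx2 differ from each other in their response was not tested.

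Promoters of the members in the table of RefSeq starts (build GRCm38.p6) were read for Msx1, Msx2 and Sp8, since these carry the highest and lowest differences and the paralog contrast. Each sequence holds 250 bases before and 50 after the start, and 6 of the 10 genes had an entry, Dlx1, Dlx2 and Tfap2a among them. Capitals mark matches, on either strand, to TAATTA (the core bound by Msx and Dlx proteins), GCCNNNGGC (AP-2), GGGCGG (Sp and Klf factors), CACGTG (E-box) or TGGGTGG (a core of the Gli site).
Msx1, chr5:37824536-37824835, minus strand: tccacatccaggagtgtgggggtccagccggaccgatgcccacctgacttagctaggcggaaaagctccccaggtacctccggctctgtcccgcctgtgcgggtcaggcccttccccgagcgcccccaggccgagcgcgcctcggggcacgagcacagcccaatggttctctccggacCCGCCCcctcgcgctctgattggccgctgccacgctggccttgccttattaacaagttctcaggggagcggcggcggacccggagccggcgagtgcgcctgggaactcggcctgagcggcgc
Msx2, chr13:53472731-53473030, minus strand: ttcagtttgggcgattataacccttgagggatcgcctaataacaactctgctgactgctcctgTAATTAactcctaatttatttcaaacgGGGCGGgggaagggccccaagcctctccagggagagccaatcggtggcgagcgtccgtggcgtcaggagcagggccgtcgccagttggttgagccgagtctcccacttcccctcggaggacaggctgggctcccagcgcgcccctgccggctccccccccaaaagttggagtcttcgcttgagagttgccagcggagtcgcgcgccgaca
Sp8 middle start, chr12:118846983-118847282, plus strand: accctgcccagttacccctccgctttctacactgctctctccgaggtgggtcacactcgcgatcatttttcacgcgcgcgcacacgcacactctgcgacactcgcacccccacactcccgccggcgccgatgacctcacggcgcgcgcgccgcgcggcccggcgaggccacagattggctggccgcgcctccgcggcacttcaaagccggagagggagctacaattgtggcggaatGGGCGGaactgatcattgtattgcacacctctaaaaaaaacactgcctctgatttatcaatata
Sp8 downstream start, chr12:118847309-118847608, plus strand: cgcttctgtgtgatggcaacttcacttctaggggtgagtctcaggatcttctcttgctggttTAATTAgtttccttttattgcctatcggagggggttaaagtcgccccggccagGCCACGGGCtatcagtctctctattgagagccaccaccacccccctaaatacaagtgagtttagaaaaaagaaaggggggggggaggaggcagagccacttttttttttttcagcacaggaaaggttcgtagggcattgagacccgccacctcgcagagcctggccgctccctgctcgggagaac
TAATTA occurred once before the Msx2 start, 187 bases upstream, and once before the downstream Sp8 start, 188 bases upstream, and 5.29% of all 32851 promoters held it. The Msx1 promoter held none, and its 1 match was to GGGCGG, 72 bases upstream, a motif found in 35.7% of promoters. Msx2 had a match to GGGCGG too, 160 bases upstream. The downstream Sp8 start also had 1 match to GCCNNNGGC, 135 bases upstream (16.6% of promoters), and the middle start 1 to GGGCGG, 14 bases upstream. The upstream Sp8 start, not printed, had no match to any of the 5. CACGTG and TGGGTGG, held by 7.15% and 9.30% of promoters, matched none of those printed. A match describes the letters of the window and shows no binding.

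Dlx5 was the Dlx gene with the clearest signal, and after normalization it was lower in each positive array. Dlx5 1449863_a_at read 12.7, 9.77 and 0.22 in positive replicates 1, 2 and 3, against 33.0, 71.6 and 8.41 in negative replicates 1, 2 and 3. As deposited the groups overlapped, with positive replicates 1 and 2 above negative replicate 3. Positive replicate 3 was below its background and positive replicates 1 and 2 lay above theirs. On the normalized log2 scale Dlx5 measured 4.83, 4.94 and 4.28 in positive arrays, against 5.16, 5.56 and 5.31 in negative arrays. On this scale the groups did not overlap, and the gap between them was 0.21. The mean was 4.68 ± 0.36 in positive arrays and 5.34 ± 0.21 in negative arrays (SD, n = 3 each), a difference of -0.66 (SE 0.33, adjusted p = 0.725, limma). It was negative in 20 of 20 settings, from -1.11 to -0.26, and passed in none (adjusted p 0.237 to 0.967, limma). It was -0.50 (SE 0.28) with positive replicate 3 left out.

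Its linked partner Dlx6 was dimmer and had no steady sign. Dlx6 1452507_at read 8.76, 2.37 and 0.86 in positive replicates 1, 2 and 3, against 9.95, 13.1 and 0.46 in negative replicates 1, 2 and 3. It exceeded background in 1 positive and 2 negative arrays, and the normalized groups overlapped. Its difference was 0.10 (SE 0.20, adjusted p = 0.882, limma), and the sign turned in 6 of 20 settings.

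Dlx1 and Dlx2, the forebrain and branchial arch pair, were at the edge of detection. Dlx1 1449470_at read 1.73, 2.61 and 0.95 in positive replicates 1, 2 and 3, all below background, against 0.78, 4.91 and 2.12 in negative replicates 1, 2 and 3, of which 1 was above it. Dlx2 1448877_at read 3.87, 4.60 and 0.93 in positive arrays, with 1 above background, against 5.82, 10.5 and 3.15 in negative arrays, with 3 above. Their normalized differences were 0.13 (SE 0.17, adjusted p = 0.808, limma) and 0.03 (SE 0.19, adjusted p = 0.958, limma). Neither gene separated the groups.

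Dlx3, a factor of surface ectoderm, placenta and hair, was likewise dim. Dlx3 1450475_at read 4.51, 3.71 and 0.06 in positive replicates 1, 2 and 3, against 11.2, 13.3 and 0.24 in negative replicates 1, 2 and 3. It was thus above background in negative replicates 1 and 2 and, by little, in positive replicate 1 (background 4.47). In both replicates 3, the smallest pools, it was far below background. The Dlx3 difference was -0.10 (SE 0.19, adjusted p = 0.871, limma), and 0.01 without positive replicate 3. Dlx3 1422037_at, above background in 1 array of each group, differed by 0.10 (SE 0.14).

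**Figure D3:**
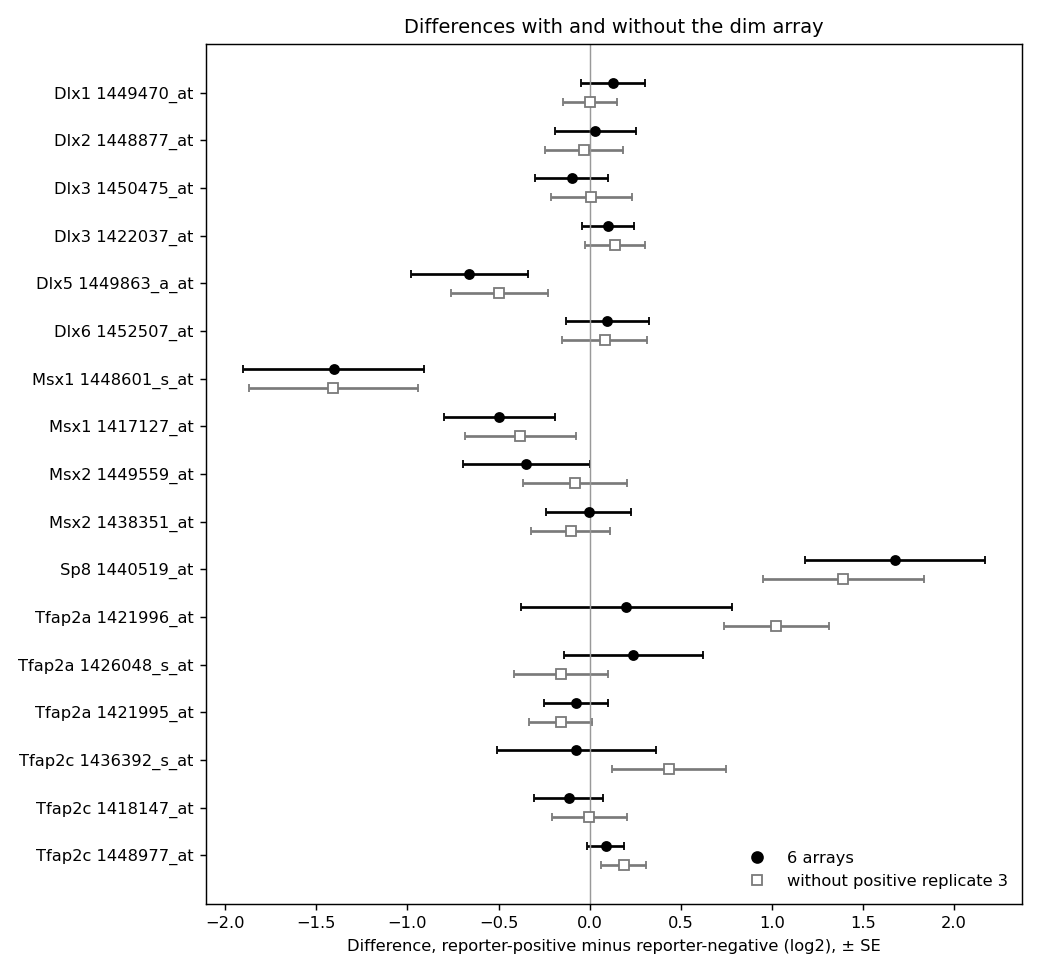
Difference in normalized log2 signal, reporter-positive minus reporter-negative, ± SE, for the 17 probe sets in the 6 arrays (filled circles) and without positive replicate 3 (open squares). Sp8 lies right of 0 and Msx1 1448601_s_at and Dlx5 left of it in both fits, and Tfap2a 1421996_at moves from 0.20 to 1.02.

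The probe sets of Tfap2a gave different pictures. Tfap2a 1421996_at read 54.8, 48.8 and 0.06 in positive replicates 1, 2 and 3, against 41.0, 54.6 and 10.6 in negative replicates 1, 2 and 3. Within their arrays positive replicates 1 and 2 stood at percentiles 92.3 and 94.0, above the 84.0, 83.9 and 86.4 of the negative arrays, and positive replicate 3 at 20.0 stood far below. The normalized log2 signal averaged 5.60 ± 1.35 in positive arrays and 5.40 ± 0.12 in negative arrays (SD, n = 3 each), a difference of 0.20 (SE 0.60, adjusted p = 0.917, limma). Leaving out positive replicate 3 brought the difference to 1.02 (SE 0.29, adjusted p = 0.277, limma). It was -0.10 without positive replicate 1 and -0.28 without positive replicate 2, so each positive array moved it. Over 20 settings it ran from -0.28 to 1.14 with a lowest adjusted p of 0.0502.

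Tfap2a 1426048_s_at, above background on every array, did not show that difference. It read 9.28, 9.77 and 1.83 in positive replicates 1, 2 and 3, against 17.5, 36.4 and 6.33 in negative replicates 1, 2 and 3, and positive replicate 3 was here the highest of all after normalization (5.94, against 4.65 and 4.94 in positive replicates 1 and 2). Its difference was 0.24 (SE 0.38) in the 6 arrays and -0.16 (SE 0.26) without positive replicate 3. Tfap2a 1421995_at was above background in no positive and 2 negative arrays and differed by -0.07 (SE 0.17). The direction for Tfap2a thus differed between probe sets and between settings.

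Tfap2c, which acts beside Tfap2a in epidermis and trophoblast, also changed when the dim array was left out. Tfap2c 1436392_s_at read 17.7, 28.2 and 0.05 in positive replicates 1, 2 and 3, against 35.0, 31.4 and 6.50 in negative replicates 1, 2 and 3. Normalized, positive replicates 1 and 2 were at 5.06 and 5.90 and positive replicate 3 at 4.03, against 5.20, 4.92 and 5.09 in negative arrays. With positive replicate 3 the groups differed by -0.07 (SE 0.46, adjusted p = 0.96, limma), and by 0.44 (SE 0.32, adjusted p = 0.745, limma) without it. Tfap2c 1418147_at and Tfap2c 1448977_at exceeded background in 1 positive array each and in 2 and 0 negative arrays, and differed by -0.12 (SE 0.19) and 0.09 (SE 0.10).

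Across the 10 genes 5 differences were above 0 and 5 below, with a median of -0.02 (0.01 without positive replicate 3), beside 47.2% above 0 and a median of -0.03 over all 14071 genes tested. After normalization the groups did not overlap, with positive arrays lower, for 2 of the 10 genes, Msx1 and Dlx5, where 6.99% of all genes tested behaved so, and with positive arrays higher for 1, Sp8, where 6.29% did. Over probe sets the same held for 2 and 1 of 17, beside 5.74% and 5.8% of all 45037. Without positive replicate 3 the adjusted threshold was passed by 0 of the 10 genes, beside 0.306% of genes higher and 0.0284% lower. At an unadjusted p under 0.05 (limma) 1 member, Msx1, was then lower, beside 3.52%, and 2 members, Sp8 and Tfap2a, were higher, beside 5.22%.

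**Figure D4:**
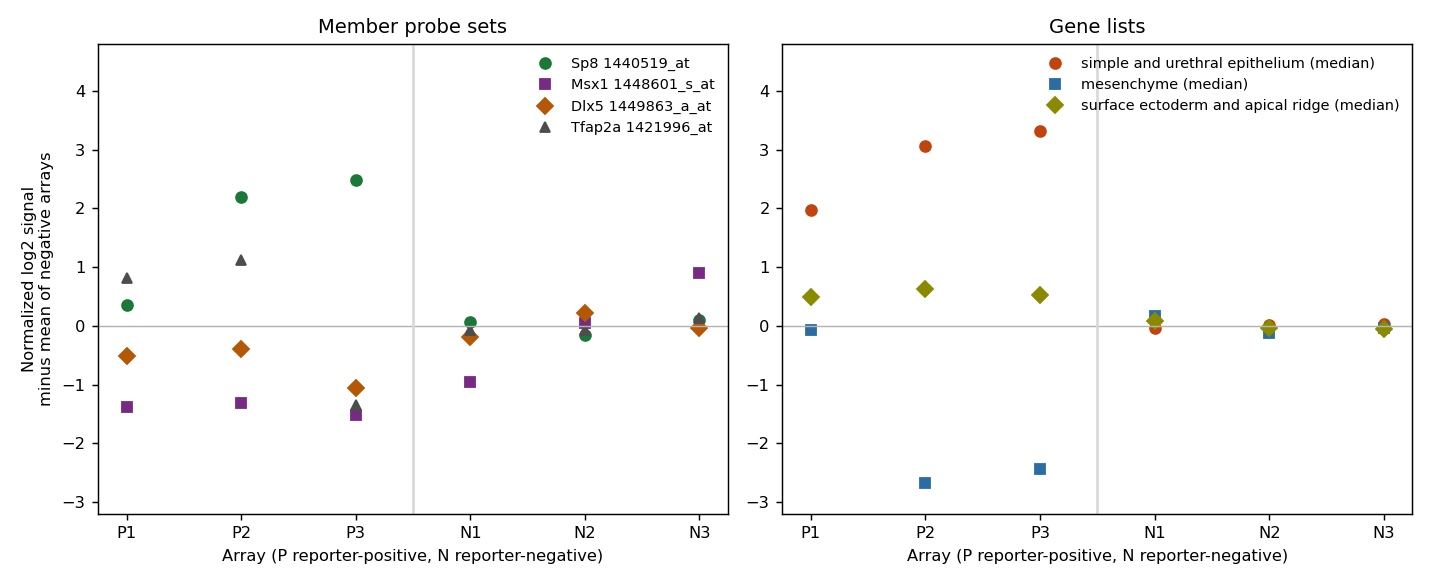
Normalized log2 signal of 4 member probe sets (left) and the median of 3 gene lists (right) on each array, as the deviation from the mean of the negative arrays, with P1 to P3 reporter-positive and N1 to N3 reporter-negative. Msx1 is low in all 3 positive arrays, and Sp8 and the mesenchymal median differ between P1 and the other positive arrays.

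Genes that work with these factors were described from lists made with earlier results of these arrays known. Surface ectoderm and apical ridge genes, the company of Sp8 and Tfap2a in the limb, had a median difference of 0.39 over 17 tested members of 20, with 14 higher and 3 lower. None passed in the 6 arrays, where Krt15, a basal keratin, differed by 2.31 (SE 0.40, adjusted p = 0.196, limma) and Trp63, the master factor of stratified epithelium, by 2.06 (SE 0.53, adjusted p = 0.628, limma). On the other side Fgf9 was at -0.83 (SE 0.37) and Krt14 at -0.57 (SE 0.42), or -0.30 without positive replicate 3. Without positive replicate 3 Krt15, Perp and Grhl3 were higher (adjusted p = 0.0159, 0.0359 and 0.00893, limma) and the list median was 0.55. Fgf8, the ridge ligand that Sp8 sustains in the limb, exceeded background on no array.

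Wnt and FGF genes tied to Sp8 had lower signal in positive cells in 8 of 9 tested cases, with a median of -0.48 and none past the threshold. Lef1, a nuclear partner of beta-catenin, differed by -1.02 (SE 0.36), and Wnt5a, a ligand of the distal mesenchyme, by -0.89 (SE 0.39). Fgfr2, whose epithelial form receives FGF10, was the exception at 0.98 (SE 0.47), and at 0.54 (SE 0.33) without positive replicate 3. The list median was -0.03 in positive replicate 1 and -0.75 and -0.62 in replicates 2 and 3, a split like that of the mesenchymal markers, whose part in it was not tested.

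BMP inputs and readouts, the pathway upstream of Msx genes, had a median of -0.21 over 20 genes, with 7 higher, 13 lower and none past the threshold. In the 5 arrays without positive replicate 3 the median was -0.04. Bmp4, a main inducer of Msx1 in face and limb, differed by -0.29 (SE 0.46), and Id1, a direct target, by 0.29 (SE 0.49), or 0.62 (SE 0.42) without positive replicate 3. Id2, another target, was at -1.36 (SE 0.82), but at -0.18 (SE 0.29) without positive replicate 3, and Smad1, which carries the signal, at -0.85 (SE 0.54). Acvr1, a type I receptor, had the highest difference, 0.31 (SE 0.47), and 0.87 (SE 0.31) without positive replicate 3, followed by Smad9 at 0.29 (SE 0.24), and at 0.04 (SE 0.16) without that array. Smad9 exceeded background on 1 array in each group.

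Among paralogs and antisense transcripts of the members, 11 of 15 were tested, 6 higher and 5 lower, with a median of 0.09 (0.04 without positive replicate 3) and none past the threshold. Sp3, a ubiquitous relative of Sp8, differed by -1.16 (SE 0.51), and Sp6, which overlaps in function with Sp8 in the limb ridge, by -0.40 (SE 0.30). Sp1 was at 0.28 (SE 0.63), but at 1.10 (SE 0.31) without positive replicate 3. Dlx1as, the antisense partner of Dlx1, was at 0.43 (SE 0.29), but at 0.04 (SE 0.10) without positive replicate 3, the 1 array on which it exceeded background. Of AP-2 cofactors 5 of 7 were tested, 2 higher and 3 lower, with a median of -0.10 and none past the threshold. Without positive replicate 3 the median was 0.07, with the sign turned. Yeats4 was at -0.92 (SE 0.63), but at -0.16 (SE 0.35) without that array. Cited2, a coactivator of AP-2, was at -0.20 (SE 0.43) with it and 0.17 (SE 0.35) without it. Kctd1, a repressor of AP-2, was at 0.30 (SE 0.45) with it and -0.20 (SE 0.29) without it, and Wwox was at 0.08 (SE 0.16) and 0.07 (SE 0.16).

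Markers of other cells were compared beside these values. Macrophage markers had a median of 0.45 over 7 genes, all 7 higher in positive arrays. Their summed deposited signals were 3.83 to 135 in positive arrays and 4.89 to 61.6 in negative arrays, with replicate 3 lowest in each group. Summed after normalization they were 138, 161 and 65.7 in positive replicates 1, 2 and 3, against 36.9, 17.1 and 11.2 in negative replicates 1, 2 and 3. None passed the adjusted threshold in the 6 arrays, and 2 did without positive replicate 3 (limma). Red cell markers summed to 10.6 to 1422 in positive arrays and 3969 to 6115 in negative arrays. Of 5 such genes 3, 4 and 1 were above background in positive replicates 1, 2 and 3. Slc4a1 exceeded it in no positive array and Hbb-y in 3 of 3. Mesenchymal markers summed to 10.4 to 2120 in positive arrays and 920 to 5594 in negative arrays, with 10, 7 and 4 of 10 genes above background in positive replicates 1, 2 and 3. Nerve and muscle markers were mostly close to background, with medians of 0.11 over 3 genes and 0.07 over 3 (0.07 and -0.11 without positive replicate 3). In negative replicate 1 all 3 muscle markers exceeded it. They summed there to 45.0, against 3.36 and 4.20 in negative replicates 2 and 3. The part of these cells in the values of Msx1, Dlx5 and Sp8 was not tested.

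**Figure D5:**
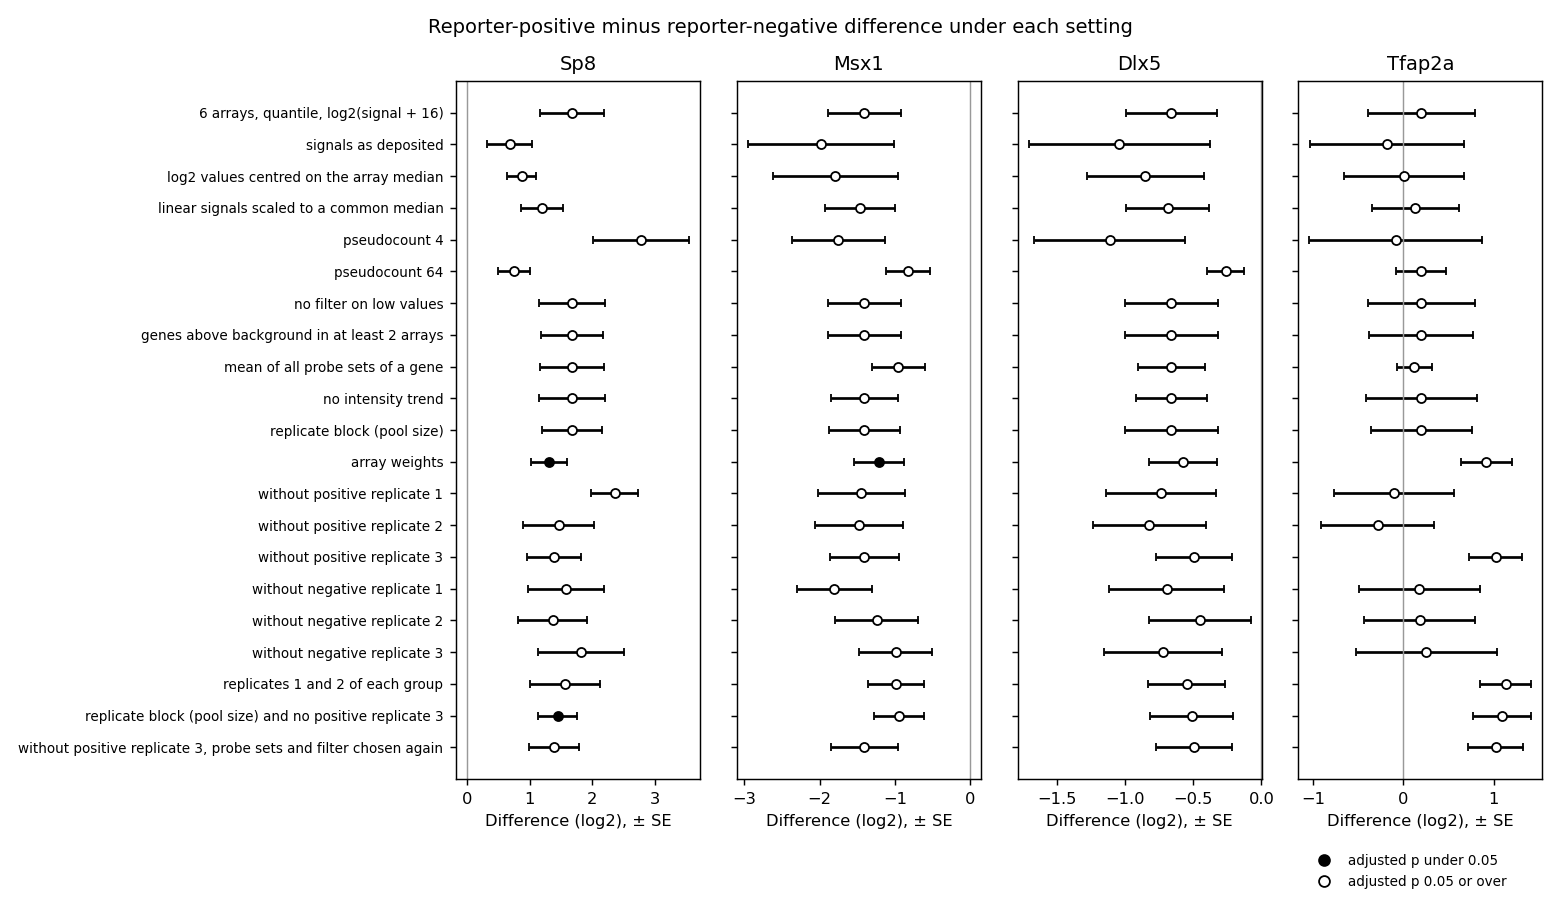
Difference in log2 signal, reporter-positive minus reporter-negative, ± SE, for Sp8, Msx1, Dlx5 and Tfap2a under each processing setting, with filled points at an adjusted p under 0.05. Sp8 is above 0 and Msx1 and Dlx5 are below 0 in each row, and Tfap2a changes sign.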

How the data were processed

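Biotin-labelled RNA was hybridized to Affymetrix arrays, per the labels' protocols. Each probe set has 1 deposited intensity on each array, on a linear scale judged from the values. GCOS is named for 1 of 6 samples in the submitters' processing notes. For summarization, scaling and filters, the methods were not given in the sources used here. Groups follow the sample labels.

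After 64 control probe sets were set aside, array medians of log2(signal + 16) differed by 0.50, over a limit of 0.2. Signals were therefore quantile normalized and transformed to log2(signal + 16). The added 16 shrinks differences of dim genes, and quantile normalization can enlarge them. For Sp8 the difference was 1.68 on this scale, 2.79 with a pseudocount of 4, and 0.68 with signals as deposited. Of 45037 probe sets 34945 had 1 gene, 932 several and 9160 none named here. Symbols were updated by gene identifier through RefSeq (34741 matched). For each gene the probe set with the highest mean was kept, and 14071 genes whose mean exceeded the 30th percentile over named probe sets were tested. All 10 members passed this filter. The comparison used lmFit, then eBayes with trend (limma 3.58.1, R 4.3.3) and Benjamini-Hochberg adjustment. Probe sets that were not the brightest of their gene were taken from the same fit over all 45037. The steps were tested on simulated data. All members were named, and from each list the genes with the largest differences in either direction. Perp, Grhl3, Fgf8, Bmp4, Id1, Slc4a1, Hbb-y, Foxa1 and Cdh1 were picked after their values were seen. The members and lists were chosen with earlier results of these data known.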

Additional observations from a re-analysis of the deposited data

How the results depend on the processing

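Sp8, Msx1 (both probe sets), Dlx5 and Tfap2a 1421995_at kept their direction in all alternatives run for them. For Tfap2a 1421995_at, above background in no positive array, the differences were small, from -0.28 to -0.0085. The other 12 of 17 member differences did not keep their direction. Over all 17 the sign turned in 43 of 317 repeats. The cause was not tested. Scaling moved the median of all genes from -0.03 to -0.46 with signals as deposited and to -0.27 with log2 values centred on the array median, so differences there are read against these. No paired analysis was planned as the main one, because the labels do not state that pools of equal size are the same embryos. Sample titles of equal pool size do carry consecutive numbers, so the 2 fractions may come from 1 pool. Deviations from the group mean correlated at 0.127, 0.033 and 0.109 between replicates of equal pool size. The replicate block for pool size left 2 genes called and changed no member's call, and with it 4 probe sets were called instead of 9. Dim signal limits Dlx1, Dlx2, Dlx3, Dlx6 and the smaller Tfap2c probe sets, where a difference may have been below what these arrays detect.

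The count of 2 genes called (limma, 728 at an unadjusted p under 0.05) became 0 with signals as deposited, with a pseudocount of 64 and with the mean of probe sets (426, 667 and 803 unadjusted). It was 24 with log2 centring, 7 with linear scaling, 6 with a pseudocount of 4, 9 among genes above background in at least 2 arrays, 480 with array weights, 12 in replicates 1 and 2, and 479 with the block and no positive replicate 3. Leaving out 1 array gave 0 to 47, with 22, 4 and 47 without positive replicates 1, 2 and 3 and 1, 3 and 0 without negative replicates 1, 2 and 3. It was 84 where probe sets and filter were chosen again without positive replicate 3, an alternative added after seeing the data. The 9 probe sets called (limma, 1757 unadjusted) became 0 as deposited, with a pseudocount of 64 and in replicates 1 and 2 (1724, 1670 and 3908 unadjusted). They became 39 with log2 centring, 15 above background, 1 without the intensity trend, 154 with array weights, 270 with the block and no positive replicate 3, and 0 to 30 with 1 array left out.

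Differences that turned their sign were small or came from probe sets of Tfap2a and Tfap2c. With signals as deposited they were -0.062 for Dlx1, -0.22 for Dlx2, -0.10 for Dlx3 1422037_at, -0.23 for Dlx6, -0.18 for Tfap2a and -0.58 for Tfap2a 1426048_s_at. Log2 centring gave -0.033 for Dlx2, -0.040 for Dlx6 and -0.39 for Tfap2a 1426048_s_at, and linear scaling 0.068 for Msx2 1438351_at. Other pseudocounts gave -0.083 for Tfap2a at 4 and 0.017 for Tfap2c at 64, and the mean of probe sets 0.0021 for Dlx3. Array weights gave -0.0077 for Dlx2, -0.0032 for Dlx6, -0.070 for Tfap2a 1426048_s_at and 0.37 for Tfap2c. Over the fits with 1 array left out the differences ran from -0.030 to 0.10 for Dlx2, -0.27 to 0.0095 for Dlx3, -0.025 to 0.21 for Dlx6, -0.10 to 0.071 for Msx2 1438351_at, -0.28 to 1.02 for Tfap2a, -0.16 to 0.51 for Tfap2a 1426048_s_at, -0.55 to 0.44 for Tfap2c and -0.034 to 0.19 for Tfap2c 1448977_at. Leaving out positive replicate 3 gave the end away from the main sign for Dlx3, Tfap2a 1426048_s_at and Tfap2c, and with probe sets chosen again the values without it were -0.030 for Dlx2, 0.0095 for Dlx3 and 0.44 for Tfap2c. Replicates 1 and 2 alone gave -0.058 for Dlx6, 0.10 for Msx2, -0.10 for Tfap2a 1426048_s_at, 0.038 for Tfap2c 1418147_at and 0.47 for Tfap2c. The block without positive replicate 3 gave -0.053, 0.090, -0.088, 0.034 and 0.45 for the same probe sets.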
